A study of Mus musculus with 3 samples.

Results

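The genes described here carry out pyruvate oxidation and the citric acid cycle. They were 32 genes chosen by name, of 46316 gene symbols in the deposited tables, and their RNA was measured in C2C12 cells. These are mouse myoblasts of an established line, and they fuse into myotubes when serum is reduced. There were 3 libraries, all labelled as taken 4 days into myogenic differentiation, and each group had 1 library. The first came from cells with a Drp1 knockout that transiently expressed FLAG-tagged Drp1 (rescue), the second from Drp1 knockout cells (KO) and the third from wild-type cells (WT). Drp1 is the GTPase that divides mitochondria. The sources used here give neither the way the knockout was made nor whether the KO cells were 1 clone. Each of the 32 symbols was found in the tables, and each passed the low-count filter of a mean of 1 CPM (counts scaled to library size), as did 13381 genes in all.

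Pyruvate made by glycolysis enters mitochondria through a carrier of paired subunits and is turned into acetyl-CoA by the pyruvate dehydrogenase complex. Kinases switch that complex off by phosphorylation and phosphatases switch it back on. The cycle then oxidises the acetyl group and feeds NADH and succinate to the respiratory chain. Malate dehydrogenases and aspartate aminotransferases, present in the cytosol and in mitochondria, form the malate-aspartate shuttle that carries reducing equivalents between them. In muscle the pathway is known for its high capacity in slow and oxidative fibres.

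The gene counts summed to between 13790417 and 13925296 per library. Dnm1l, the gene of Drp1, had 1481 counts in rescue, 1284 in KO and 1823 in WT, so its RNA was present, though lower, in the library labelled KO (log2 ratio of KO over WT -0.48). An RNA count does not show whether protein was made. Of 12 markers of differentiated muscle, all 12 were above the filter, with summed levels of 23147 CPM in rescue, 18298 in KO and 18700 in WT. Their median log2 ratio was -0.36 for KO over WT and 0.33 for rescue over KO, and they did not go one way. For KO over WT they ran from -2.46 for Actn2 and -1.60 for Ckm to 0.33 for Myh3 and 0.47 for Myog. Of the 5 markers of undifferentiated myoblasts, Heyl had 58 counts in rescue, 64 in KO and 622 in WT. In the same order Myf5 had 570, 617 and 949, Id1 121, 114 and 70, Id3 77, 93 and 75, and Pax7 4, 8 and 3. The 6 fibroblast markers, 4 of them above the filter, summed to 2623 CPM in rescue, 3111 in KO and 1640 in WT, and they did not go one way. Col1a1, Col1a2 and Pdgfra were higher than WT in rescue and KO, while Dcn had 1792 counts in rescue, 1787 in KO and 5177 in WT. Lum had 1, 0 and 9 counts in rescue, KO and WT, and Thy1 had 0, 1 and 0. The 3 proliferation markers summed to 268 CPM in rescue, 278 in KO and 345 in WT. Among the 4 adipocyte markers, Adipoq, Cidec and Lep had 0 counts in every library. Of the 3 immune markers Ptprc and Adgre1 were at 0 counts in all libraries, and Cd68 had 42 counts in rescue, 55 in KO and 22 in WT. The part of these marker differences in the results was not tested. In bulk RNA, fewer cells of a type and less RNA per cell cannot be told apart. Since each group had 1 library, no difference below could be set against the spread between replicates, and none was tested. Intervals given with a log2 ratio are 95% counting intervals and cover counting error only.

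The summed RNA of the pathway lay within a narrow range in the 3 libraries, while single genes differed by more. Log2 ratios of single genes ran from -0.53 to 0.50 in KO over WT and from -0.67 to 0.52 in rescue over WT. The 32 genes together had 58150 counts in rescue, 54085 in KO and 58881 in WT. Their summed level was 4223 CPM in rescue, 3920 in KO and 4193 in WT, a difference of -6.51% for KO against WT and of 0.711% for rescue against WT. Mdh1, Mdh2 and Pdha1, all lower in KO, were left out after their values were seen. The sum of the others was 3225 CPM in KO and 3256 in WT, a difference of -0.956%. That choice itself brings the sums of KO and WT closer, so the remainder is a description only. Between genes the range was wide. Per length, as CPM per kilobase of transcript, Mdh2, mitochondrial malate dehydrogenase, and Cs, citrate synthase, stood highest, with 228 and 193 in rescue, 189 and 195 in KO, and 261 and 183 in WT. Pdp2, a phosphatase of the pyruvate dehydrogenase complex, stood lowest with 1.41 in rescue, 1.67 in KO and 2.12 in WT.

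**Figure D1:**
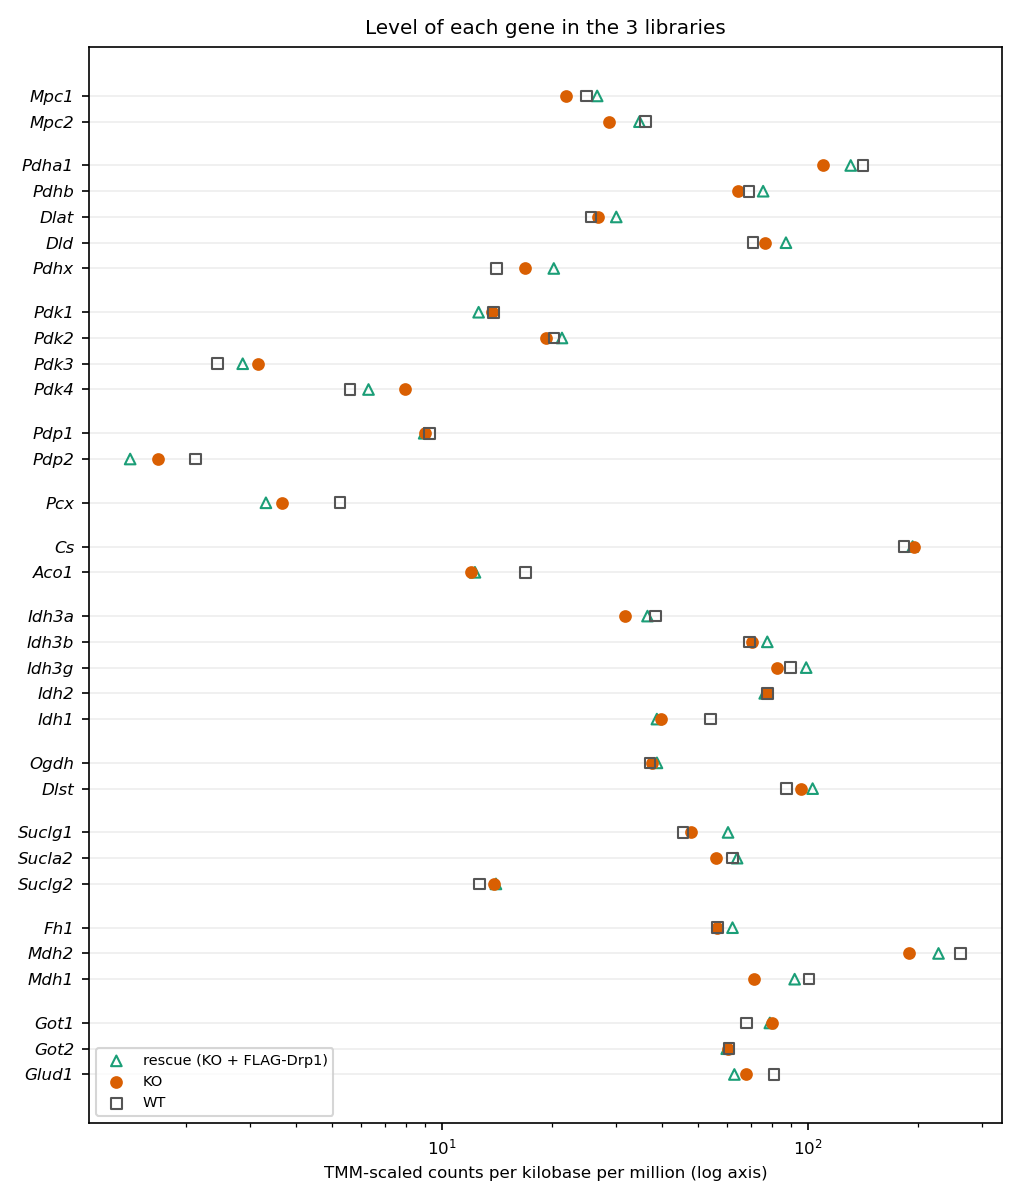
Level of each of the 32 genes in rescue (triangles), KO (filled circles) and WT (squares), as TMM-scaled CPM per kilobase of transcript on a log axis, with genes ordered by role. Levels run from 1.41 for Pdp2 in rescue to 261 for Mdh2 in WT.

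In KO against WT, none of the 32 genes differed by 1.5-fold or more, and the background share was 22.6% of all genes kept by the filter (12.1% higher and 10.4% lower). Among the 10358 genes with a mean of 100 counts or more, a filter added after the data were seen that all 32 pass, the share was 15.7%. At 2-fold the count was again 0 of 32, with 9.42% of all genes. The median log2 ratio of the 32 genes was -0.03, with 12 above 0 and 20 below, beside 0.00 over all genes. The quartiles of the 32 were -0.29 and 0.08, beside -0.28 and 0.29 for all genes. The counting interval lay wholly above 0 for 7 of the 32, beside 29.0% of all genes, and wholly below 0 for 12, beside 29.3%. At 1.25-fold, a limit also added after the data were seen, 2 of the 32 were higher, Pdk4 and Pdk3, beside 23.2% of all genes, and 8 were lower, beside 22.0%. A share of 8 in 32 is near that background. The 8 were Pcx, Mdh1, Aco1, Mdh2, Idh1, Pdha1, Pdp2 and Mpc2.

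In rescue against KO, 0 of 32 genes reached 1.5-fold, beside 6.58% of all genes (3.81% higher and 2.77% lower) and 1.88% of those with 100 counts or more. At 2-fold the count was 0 of 32, beside 1.88%. At 1.25-fold, Mdh1 and Suclg1 were the 2 higher genes, beside 10.5%, and Pdk4 the 1 lower gene, beside 9.66%. The median log2 ratio was 0.12 with 20 genes above 0 and 12 below, beside 0.00 over all genes. The counting interval lay wholly above 0 for 16 of the 32 genes, beside 17.7% of all genes, and wholly below 0 for 2, beside 17.7%. In rescue against WT the median was 0.07, beside 0.01 over all genes. Pcx and Pdp2 were the 2 of 32 genes at least 1.5-fold lower in rescue than in WT, beside 7.99% of all genes, and none was 1.5-fold higher, beside 10.4%. In either direction the share at 1.5-fold was 18.4% of all genes and 11.4% of those with 100 counts or more. At 2-fold, rescue against WT had 0 of 32, beside 7.65%. At 1.25-fold 2 were higher, beside 20.6%, and 5 lower, beside 18.2%. The interval lay wholly above 0 for 12 genes, beside 26.9%, and below for 9, beside 25.4%. Pcx and Pdp2 passed the 1.5-fold limit at 1.59-fold and 1.5-fold, and Pdhx, higher in rescue, fell short of it at 1.43-fold. The comparisons share libraries, KO against WT and rescue against KO the KO library, KO against WT and rescue against WT the WT library, and so they are not independent of each other.

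**Figure D2:**
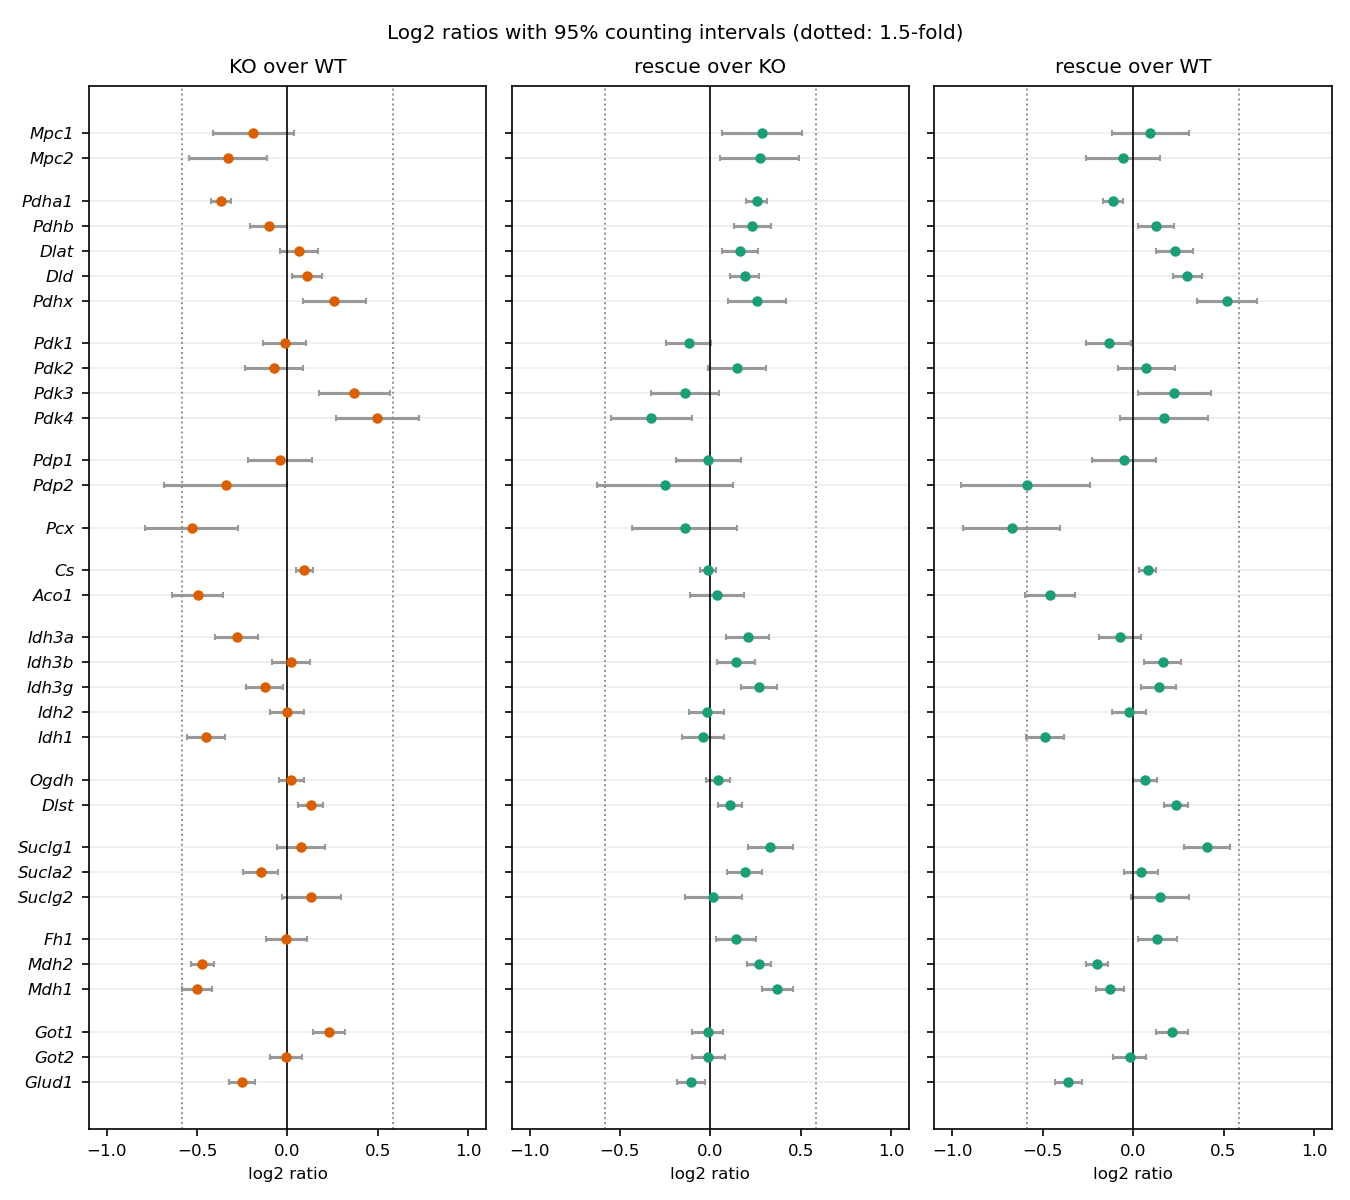
Log2 ratios of the 32 genes for KO over WT, rescue over KO and rescue over WT, with bars for the 95% counting interval and dotted lines at 1.5-fold. No gene reaches 1.5-fold in KO over WT or rescue over KO, and Pcx and Pdp2 do so in rescue over WT.

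Transcript length moved with the ratios in these libraries, and the values with the length trend removed are therefore given beside those of the short genes. Over all genes kept, the tenth with the shortest transcript rows, 1339 genes around a median of 709 bases, stood at a median of -0.13 on the log2 scale in KO over WT and at 0.22 in rescue over KO. The tenth with the longest rows, 1338 genes around a median of 9856.5 bases, stood at 0.19 in KO over WT and at -0.20 in rescue over KO. The 5 pathway genes with rows under 1500 bases, Mpc2, Mpc1, Mdh2, Idh3g and Suclg1, had a median of 0.27 in rescue over KO and of 0.12 with the trend removed. In KO over WT the same 5 genes had a median of -0.19, and of -0.02 with the trend removed. For all 32 genes the median in rescue over KO was 0.08 with the trend removed. The cause of the length trend was not tested.

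**Figure D3:**
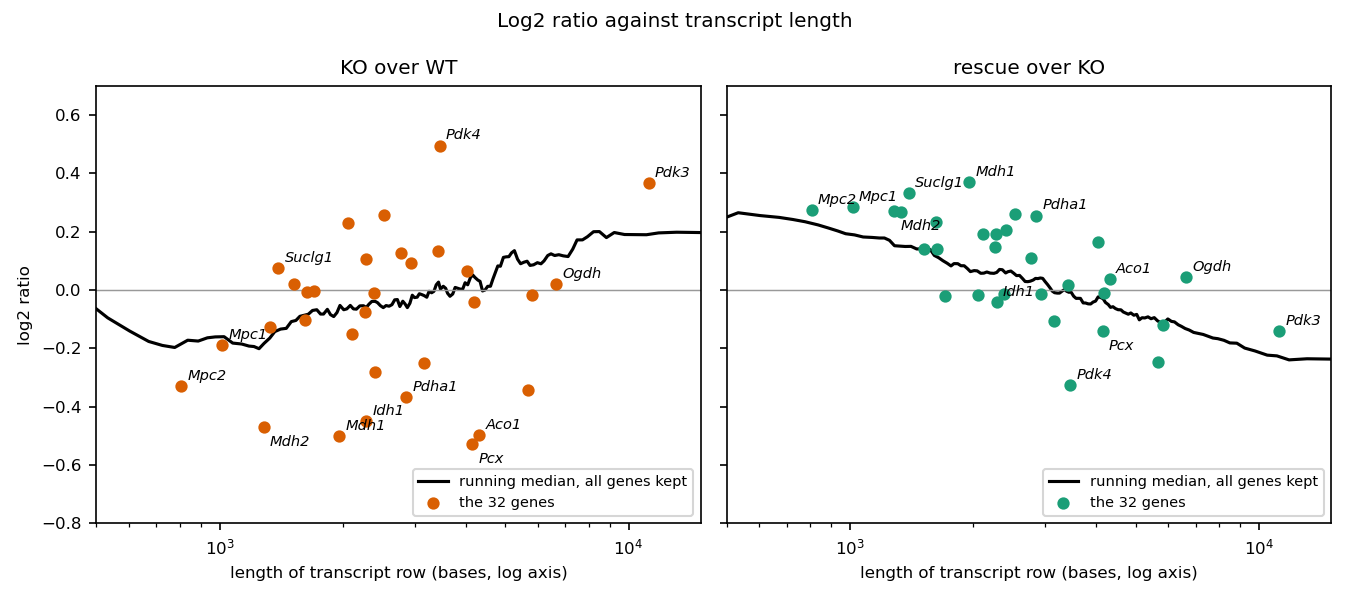
Log2 ratio against the length of the transcript row (bases, log axis) for KO over WT and rescue over KO. Points are the 32 genes and the black line is the running median of all genes kept, which rises with length over most of the range in KO over WT and falls with it in rescue over KO.

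The mitochondrial pyruvate carrier had its lowest counts in KO. Mpc1, a subunit, had 372 counts in rescue, 306 in KO and 355 in WT, and Mpc2, its partner, had 385 in rescue, 319 in KO and 408 in WT. The KO value was the lowest of the 3 for both genes. For Mpc1 alone the interval of KO over WT included 0 (log2 ratio -0.19, interval -0.41 to 0.04), and for Mpc2 it did not (-0.33, interval -0.55 to -0.11). Summed over both, the difference was -16.6% for KO against WT (log2 ratio -0.26, interval -0.42 to -0.11) and 21.4% for rescue against KO. With the length trend removed, the log2 ratio of KO over WT was -0.02 for Mpc1 and -0.15 for Mpc2, and that of rescue over KO was 0.08 and 0.05.

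Genes of the pyruvate dehydrogenase complex differed from each other in KO against WT. Pdha1, the E1 alpha subunit that the kinases phosphorylate, had 5152 counts in rescue, 4324 in KO and 5678 in WT. Its log2 ratio of KO over WT was -0.37 (interval -0.43 to -0.31), a 1.29-fold lower level, and -0.33 with the length trend removed. Pdhb, the E1 beta subunit of the same heterotetramer, had 1686, 1438 and 1573 counts in rescue, KO and WT (log2 ratio of KO over WT -0.10, interval -0.21 to 0.00). Pdhx, which anchors the E3 subunit to the core, was lowest in WT, with 704 counts in rescue, 589 in KO and 501 in WT. Rescue was 1.43-fold above WT for Pdhx (log2 ratio 0.52, interval 0.35 to 0.69) and KO was 1.20-fold above WT (0.26, interval 0.08 to 0.43). Dlat, the E2 acetyltransferase, had 1666 counts in rescue, 1490 in KO and 1450 in WT. Dld, the E3 subunit shared with the 2-oxoglutarate dehydrogenase complex, had 2734 in rescue, 2400 in KO and 2266 in WT. All 5 genes were higher in rescue than in KO, with log2 ratios from 0.16 to 0.26, or 0.12 to 0.22 with the length trend removed. Summed over the 5, the level was 867 CPM in rescue, 742 in KO and 817 in WT.

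The 4 kinase genes did not move together. Pdk4, the isoform of muscle known to be induced by fasting and fatty acids, had 300 counts in rescue, 377 in KO and 272 in WT. KO stood highest, 1.41-fold above WT (log2 ratio 0.50, interval 0.27 to 0.73). Rescue over KO had a log2 ratio of -0.33 (interval -0.55 to -0.10). Pdk2, the most widely expressed isoform, had 664 counts in rescue, 601 in KO and 644 in WT. Pdk1, a target of the hypoxia factor HIF-1, had 1011 in rescue, 1100 in KO and 1132 in WT. For both the interval of KO over WT included 0. Per length, Pdk2 was the most abundant of the 4 in every library, with 49.5% of their summed level in rescue, 43.7% in KO and 48.1% in WT. Pdk4 stood at 6.31 in rescue, 7.91 in KO and 5.61 in WT as CPM per kilobase. Summed per length, the kinases stood at 43.1 in rescue, 44.0 in KO and 42.2 in WT CPM per kilobase. These shares and sums take Pdk3 on its longer row of 11200 bases, with 441 counts in rescue, 487 in KO and 384 in WT. Its shorter row of 2055 bases had 299, 305 and 291. With the shorter row Pdk3 and the kinase sum would stand higher per length, and the share of Pdk2 lower.

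Pdk3 was the 1 kinase gene whose transcript rows disagreed. Its longer row of 11200 bases, used for the gene, had 441 counts in rescue, 487 in KO and 384 in WT (log2 ratio of KO over WT 0.37, interval 0.17 to 0.56). The shorter row of 2055 bases had 299 in rescue, 305 in KO and 291 in WT (0.09, interval -0.14 to 0.33). The counts of the longer row beyond those of the shorter one were 142 in rescue, 182 in KO and 93 in WT, a log2 ratio of KO over WT of 0.99 (interval 0.63 to 1.37). That split takes the reads of the shorter row as contained in the longer one. Counts of the shorter row thus lay within counting error of each other, and those of the remainder did not. With the length trend removed the gene's ratio of KO over WT was 0.17. Among the 20 members with several rows of 100 counts or more, the other 19 had rows within 0.04 of each other on the log2 scale for KO over WT.

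The phosphatases, which reactivate the complex, were fewer and lower. Pdp1, the calcium-stimulated isoform of muscle, had 516 counts in rescue, 521 in KO and 545 in WT, and the intervals of all 3 of its ratios included 0. Pdp2 had 110 in rescue, 131 in KO and 169 in WT, with a log2 ratio of -0.59 in rescue over WT (interval -0.95 to -0.24, 1.5-fold lower). The summed kinase level, with Pdk3 on its longer row, was 4.16 times the summed phosphatase level in rescue, 4.11 times in KO and 3.70 times in WT. With the shorter Pdk3 row these multiples would be higher.

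**Figure D4:**
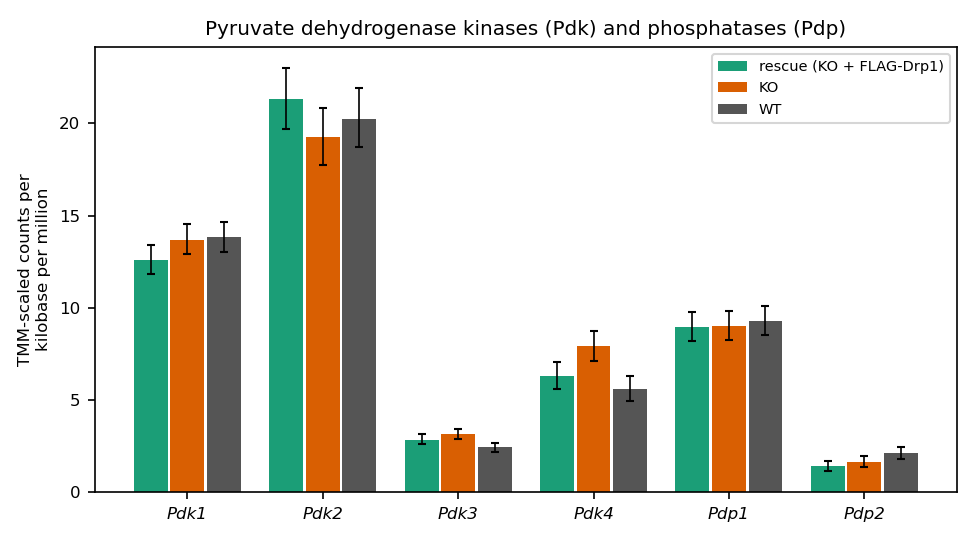
Level of the pyruvate dehydrogenase kinase (Pdk) and phosphatase (Pdp) genes in rescue, KO and WT, as TMM-scaled CPM per kilobase, with bars for exact 95% Poisson intervals of the count. Pdk2 is highest in all 3 libraries, Pdk4 is highest in KO (7.91) and Pdp2 is lowest in rescue (1.41). Pdk3 is shown on its longer row.

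Pcx, pyruvate carboxylase, which makes oxaloacetate from pyruvate to refill the cycle, had the lowest ratio of the 32 genes in KO over WT and in rescue over WT. It had 189 counts in rescue, 209 in KO and 307 in WT. Its log2 ratio was -0.67 in rescue over WT (interval -0.94 to -0.41, 1.59-fold lower) and -0.53 in KO over WT (interval -0.79 to -0.27, 1.44-fold lower). Rescue and KO did not differ beyond counting error (-0.14, interval -0.43 to 0.15). Per length it was among the lowest of the 32 genes, at 3.31 CPM per kilobase in rescue, 3.65 in KO and 5.27 in WT.

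At the entry of the cycle Cs hardly varied, while Aco1 was lower in KO and in rescue. Cs had 7820 counts in rescue, 7909 in KO and 7546 in WT, with KO 1.07-fold above WT (log2 ratio 0.09, interval 0.05 to 0.14). Aco1, the cytosolic aconitase that also serves as the iron regulatory protein IRP1, had 733 in rescue, 716 in KO and 1029 in WT. Against WT its log2 ratio was -0.46 in rescue (interval -0.60 to -0.32, 1.38-fold lower) and -0.50 in KO (interval -0.64 to -0.36, 1.41-fold lower). KO and rescue lay within counting error of each other.

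The isocitrate dehydrogenase genes differed from each other. Idh1, the cytosolic NADP-dependent form, had 1218 counts in rescue, 1255 in KO and 1743 in WT. It was lower than WT by log2 ratios of -0.49 in rescue (interval -0.60 to -0.38) and -0.45 in KO (interval -0.55 to -0.34). Idh2, the mitochondrial NADP-dependent form, had 1789 in rescue, 1819 in KO and 1857 in WT, and all 3 intervals included 0. For the NAD-dependent enzyme of the cycle, Idh3a, the catalytic subunit, had 1208 in rescue, 1049 in KO and 1296 in WT (log2 ratio of KO over WT -0.28, interval -0.40 to -0.16). Its partner Idh3b had 1623 in rescue, 1474 in KO and 1479 in WT, and Idh3g had 1815, 1510 and 1677. Among Idh1, Idh2 and Idh3a, the per-length share of Idh1 was 25.6% in rescue, 26.7% in KO and 31.9% in WT.

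In the middle of the cycle, the genes listed here had log2 ratios of KO over WT from -0.15 for Sucla2 to 0.13 for Suclg2. Succinate dehydrogenase, which acts between succinate-CoA ligase and fumarase, is not among them and is described below. Its subunit genes Sdha, Sdhb, Sdhc and Sdhd were lower in KO, with log2 ratios from -0.56 for Sdhd to -0.18 for Sdha. With the length trend removed these ran from -0.37 for Sdhd to -0.13 for Sdhc. Ogdh, the E1 subunit of the 2-oxoglutarate dehydrogenase complex, had 3541 counts in rescue, 3443 in KO and 3453 in WT. Dlst, its E2 subunit, had 3939 in rescue, 3660 in KO and 3409 in WT. Succinate-CoA ligase has a common alpha subunit, Suclg1, and a beta subunit that sets the nucleotide, ADP for Sucla2 and GDP for Suclg2. Suclg1 had 1161 counts in rescue, 924 in KO and 892 in WT, so rescue stood above KO (log2 ratio 0.33, interval 0.21 to 0.46, and 0.18 with the length trend removed) and 1.33-fold above WT. Sucla2 had 1863, 1635 and 1845 counts in rescue, KO and WT, and Suclg2 had 661, 655 and 608. Sucla2 held 82.0% of the summed per-length level of the beta subunits in rescue, 80.1% in KO and 83.1% in WT. Fh1, fumarase, had 1400 in rescue, 1273 in KO and 1301 in WT.

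Both malate dehydrogenases were lowest in KO. Mdh2, the enzyme of the cycle, had 4019 counts in rescue, 3337 in KO and 4706 in WT. The log2 ratio of KO over WT was -0.47 (interval -0.53 to -0.41, 1.39-fold lower) and that of rescue over KO 0.27 (interval 0.20 to 0.34). With the length trend removed, Mdh2 had -0.29 in KO over WT and 0.12 in rescue over KO. Mdh1, the cytosolic enzyme, had 2483 in rescue, 1923 in KO and 2769 in WT. Its log2 ratio of KO over WT was -0.50 (interval -0.59 to -0.42, 1.41-fold lower) and that of rescue over KO 0.37 (interval 0.29 to 0.46, 1.29-fold higher). With the trend removed these ratios were -0.45 in KO over WT and 0.30 in rescue over KO. Rescue stood between KO and WT for both genes. The per-length share of Mdh1 in the pair was 28.8% in rescue, 27.4% in KO and 27.8% in WT.

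The aspartate aminotransferases, the other enzymes of the malate-aspartate shuttle, differed from Mdh1 and Mdh2 in KO against WT. Got1, the cytosolic aspartate aminotransferase, was higher than WT, with 2233 counts in rescue, 2261 in KO and 1964 in WT (log2 ratio of KO over WT 0.23, interval 0.14 to 0.32). Got2, its mitochondrial partner, had 1973 in rescue, 1993 in KO and 2040 in WT, with all 3 intervals including 0. Glud1, glutamate dehydrogenase, which yields 2-oxoglutarate, had 2741 in rescue, 2957 in KO and 3583 in WT. Glud1 had a log2 ratio of -0.36 in rescue over WT (interval -0.43 to -0.29) and of -0.25 in KO over WT (interval -0.32 to -0.18).

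The letters upstream of the genes were searched for the motifs of factors known to act on metabolic and muscle genes, a search chosen with values of these data known. Sequences of the 250 bases before each gene's start were taken from RefSeq promoter windows of build GRCm38.p6, which held 40 windows of 30 of the 32 genes. The motif of C/EBP and ATF4 together, TTGCATCA on either strand, was found in 1 of the 40 windows, that of Got1, and in 0.791% of all 32851 windows. It was also searched in windows of 61 genes of the neighbouring lists described below and found for 1, Esrra. Windows of Asns, Pck2, Aldh18a1, Psat1 and Gpt2 were without it. The myogenic E-box CAGCTG was found in windows of 4 of the 30 genes, Dld, Got2, Pcx and Pdk1, and in 13.0% of all windows. The ERR motif TCAAGGTCA was in no window of the 30 genes and in 0.387% of all windows, and the ETS motif CCGGAAGT in none and in 2.88%. The motifs searched for NRF1 and MEF2 were in none of the members' windows and in 0.782% and 0.140% of all. Matches were counted on both strands. No match overlapped another, and no match says only that these letters are not in the window. The windows of Got1, the member with the ATF4 motif, and of Pcx, the member with the lowest ratio, are shown with the match in capitals. Got1 lies on the minus strand at chr19:43524606-43524855, with the match starting 102 bases before the start of the gene. The Pcx window lies on the plus strand at chr19:4594069-4594318, with the E-box starting 209 bases before the start. It is 1 of 2 start sites in the table, and the other holds none of these motifs.
Got1: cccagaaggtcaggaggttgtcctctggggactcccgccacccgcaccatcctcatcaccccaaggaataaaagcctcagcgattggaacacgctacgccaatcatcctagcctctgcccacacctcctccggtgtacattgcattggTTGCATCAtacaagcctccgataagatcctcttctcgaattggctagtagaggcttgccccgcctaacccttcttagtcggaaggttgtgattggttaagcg
Pcx: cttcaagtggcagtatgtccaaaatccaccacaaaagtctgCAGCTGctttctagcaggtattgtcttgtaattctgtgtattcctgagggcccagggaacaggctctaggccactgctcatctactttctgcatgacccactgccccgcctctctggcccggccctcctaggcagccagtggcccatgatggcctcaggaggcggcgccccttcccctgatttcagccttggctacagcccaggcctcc
A match is a run of letters and not a measured binding site.

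Around the pathway, several enzymes that draw on its intermediates differed by more than 1.5-fold from WT. Of the 73 genes in 7 neighbouring lists, 66 passed the filter. In KO against WT 14 of these were at least 1.5-fold higher and 5 lower, beside 12.1% and 10.4% of all genes. No list gene reached 1.5-fold in rescue against KO. In rescue against WT 9 were higher and 4 lower, beside 10.4% and 7.99%.

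Succinate dehydrogenase oxidises succinate in the cycle and is also complex II of the respiratory chain. All 8 genes of its subunits and assembly factors were below WT in KO, with log2 ratios from -0.56 to -0.12 and a median of -0.23, and none reached 1.5-fold. The intervals of Sdhaf1, Sdhaf3 and Sdhaf4 included 0. With the length trend removed the median was -0.13, and Sdhaf1 and Sdhaf4 lay at 0.04 and 0.01. All 8 were above KO in rescue, from 0.04 to 0.45 with a median of 0.23, but the median was 0.02 with the length trend removed. Sdhd, a membrane anchor of succinate dehydrogenase, had 1307 counts in rescue, 999 in KO and 1496 in WT, and Sdhb, the iron-sulfur subunit, had 1221 in rescue, 894 in KO and 1164 in WT. Rows of this list were 667 to 3097 bases long, and with the length trend removed KO over WT was -0.37 for Sdhd and -0.16 for Sdhb.

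Among enzymes of malate, citrate and lactate, Pck2, the mitochondrial phosphoenolpyruvate carboxykinase that takes oxaloacetate from the cycle, had 1951 counts in rescue, 2184 in KO and 682 in WT. It was 2.92-fold above WT in rescue (log2 ratio 1.54, interval 1.42 to 1.67) and 3.26-fold above WT in KO (1.70, interval 1.58 to 1.83). Rescue and KO both lay far from WT and close to each other. Ldha, the lactate dehydrogenase subunit of fast muscle, had 8935 in rescue, 7150 in KO and 12425 in WT, and Ldhb, the heart subunit, had 273 in rescue, 242 in KO and 131 in WT. KO was 1.71-fold below WT for Ldha and 1.88-fold above WT for Ldhb. The malic enzymes Me1, Me2 and Me3 stayed within 1.5-fold of WT, and Pck1 had 0 counts in all libraries.

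Carriers of the cycle's acids went both ways. Slc25a10, the mitochondrial dicarboxylate carrier, had 221 counts in rescue, 172 in KO and 407 in WT, 1.80-fold below WT in rescue and 2.32-fold below in KO (log2 ratio -1.21, interval -1.48 to -0.96). Slc25a11, the 2-oxoglutarate carrier of the malate-aspartate shuttle, had 1202 in rescue, 1092 in KO and 1365 in WT, and Slc25a12, its aspartate-glutamate carrier, had 830, 754 and 844. The citrate carrier Slc25a1 had 480 in rescue, 521 in KO and 416 in WT.

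Of 8 enzymes around glutamine and alanine, 4 were at least 1.5-fold above WT in KO, beside 12.1% of all genes, and 3 in rescue, beside 10.4%. Asns, which makes asparagine with the amide of glutamine, had 5223 counts in rescue, 5312 in KO and 1677 in WT. Aldh18a1, which turns glutamate into a proline precursor, had 2839 in rescue, 3074 in KO and 1169 in WT. The other genes past 1.5-fold in KO were Psat1, an aminotransferase of serine synthesis that yields 2-oxoglutarate (1.85-fold), and Gpt2, the mitochondrial alanine aminotransferase (1.66-fold). Gpt2 was 1.46-fold above WT in rescue. Glul, glutamine synthetase, had 1384 in rescue, 1329 in KO and 1766 in WT. Bcat1, the cytosolic branched-chain aminotransferase, was 2.44-fold above WT in rescue and 2.57-fold in KO. It was the 1 gene of 6 above the filter in the branched-chain list to pass 1.5-fold against WT, beside 18.4% of all genes for rescue and 22.6% for KO.

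**Figure D5:**
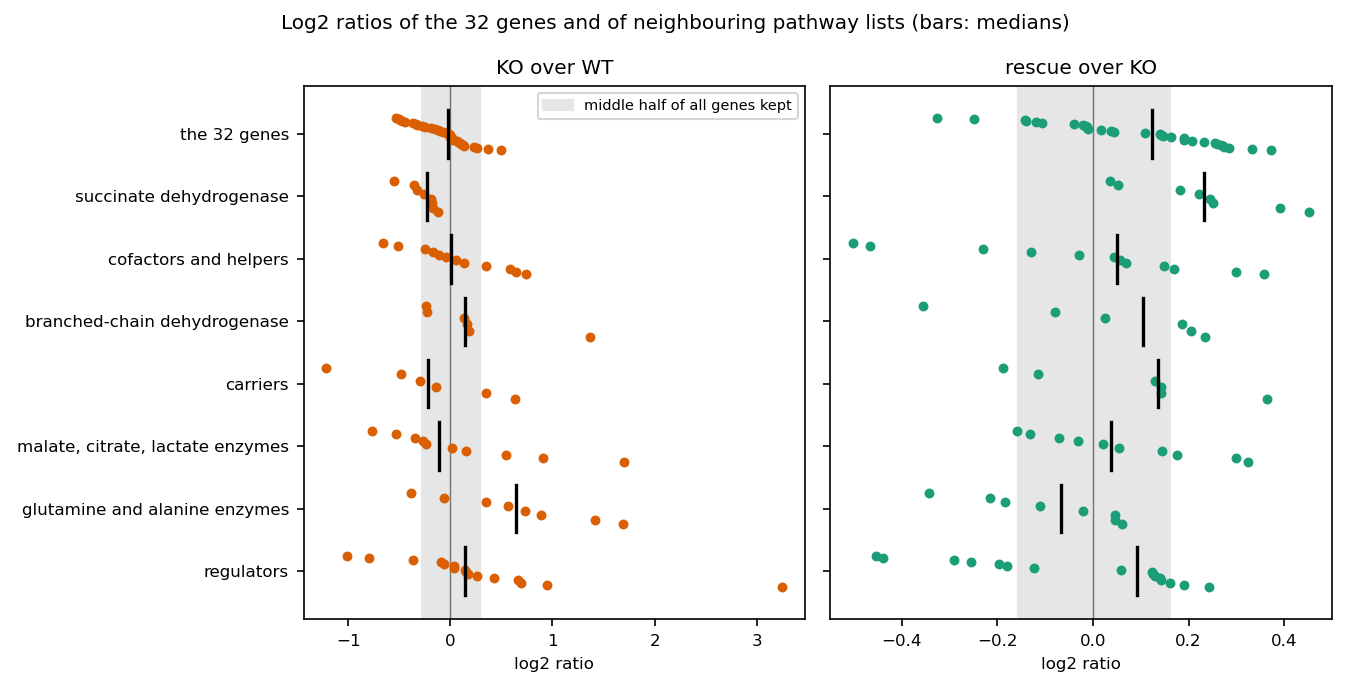
Log2 ratios of KO over WT and of rescue over KO for the 32 genes and for the genes of 7 neighbouring lists above the filter, where each point is a gene, each black bar a median and the grey band the quartiles of all genes kept. The medians for KO over WT are -0.03 for the 32 genes, -0.23 for succinate dehydrogenase and 0.64 for the glutamine and alanine enzymes.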

How the data were processed

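RNA was read in 3 libraries of differentiated C2C12 cells. The submitters' processing notes name featureCounts 2.0.0, HISAT2 2.2.1 and cutadapt 1.9.1, and build GRCm39. Settings, such as strand or the handling of reads with several matches, are not stated in what was used here. The deposited count column held raw read counts for 139023 transcript rows. RPKM and TPM columns deposited by the authors, checked to equal counts per kilobase scaled to the table, were not analysed further. Rows of a gene share reads, so the row with the highest count summed over the libraries stood for the gene, which makes genes that overlap or have close copies uncertain. Counts were scaled with TMM factors (edgeR 4.0.16 in R 4.3.3), genes with a mean of 1 CPM or more were kept, and log2 ratios had 0.5 added to each count. Intervals are exact conditional (Clopper-Pearson) 95% intervals, checked on data simulated with counting error only. That check covers the computation and not the spread between replicates. PCR copies among reads carry no identifier, so the true error is larger. The length trend was a running median over genes ordered by length. Levels are CPM per kilobase.

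The members, lists and limits were chosen with earlier results of these data known. Values were printed for members 1.5-fold apart, for the 4 largest ratios per comparison with at least 100 counts, and for the kinases, carriers, Pdha1, Cs and Dnm1l, and the other members were described by role. From the lists, at most 4 genes 1.5-fold apart with at least 100 counts were to be named by the rule, and others shown were chosen after their values were seen. Alternatives were DESeq2 1.42.0 size factors, library totals, other rows, another number added, no filter and removal of the length trend. 1 gene of a neighbouring list is not reported here.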

Additional observations from a re-analysis of the deposited data

How the results depend on the processing

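No paired analysis was possible because each group had 1 library. The counts of members at least 1.5-fold or 2-fold apart were 0 of 32 for both the KO-WT and the rescue-KO comparison under every alternative. In rescue against WT the count at 1.5-fold was 1 with 5 added to each count, since Pdp2 then lay below the limit, and 2 otherwise. The members' median for KO over WT ranged from -0.04 with library totals alone to -0.02 with the length trend removed. That for rescue over KO ranged from 0.08 with the trend removed to 0.13 with the longest row, and that for rescue over WT from 0.04 with library totals to 0.07. Removing the length trend moved 15 of 96 member ratios beyond their counting interval and changed the sign of 7, the largest being Pdk3 in rescue over KO (-0.14 and 0.10). It moved the median of the succinate dehydrogenase genes in rescue over KO to 0.02, in place of 0.23. At 1.25-fold, it left 1 member apart in rescue against KO in place of 3. The sum of all rows moved Pdk3 in KO over WT to 0.25. Depth limits Pdp2, Pcx and Pdk4 most, and with 1 library a group no setting supplies a replicate check.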

Other observations

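Genes named as regulators of the pyruvate dehydrogenase kinases or of the pathway were examined as values. Hif1a, the oxygen-regulated subunit of HIF-1, had 3948 counts in rescue, 4723 in KO and 3042 in WT, and Nr3c1, the glucocorticoid receptor, had 1424 in rescue, 1616 in KO and 1015 in WT. Vegfa, a HIF target, had 3318 in rescue, 3190 in KO and 1684 in WT, while other HIF targets on the list were nearer WT in KO, with log2 ratios of -0.07 for Bnip3, 0.03 for Slc2a1 and 0.17 for Egln3. Angptl4, a PPAR target as is Pdk4, had 222 counts in rescue, 195 in KO and 402 in WT. Ppard, the PPAR of muscle, had 564 in rescue, 648 in KO and 550 in WT. Esrra, a nuclear receptor that activates citric acid cycle genes, had 821 in rescue, 745 in KO and 686 in WT. Its interval of KO over WT included 0 (log2 ratio 0.14, interval -0.01 to 0.30). Esrrg, a relative of Esrra named after its values were seen, had 37, 51 and 5 counts in rescue, KO and WT. Their coactivators were lower in KO than in WT. Ppargc1a had 33 counts in rescue, 45 in KO and 80 in WT (log2 ratio of KO over WT -0.80, interval -1.37 to -0.26). Ppargc1b had 406 in rescue, 373 in KO and 488 in WT (-0.36, interval -0.56 to -0.16). Of the 17 listed regulators 16 passed the filter, 4 were at least 1.5-fold above WT in KO, beside 12.1% of all genes, and 2 below, beside 10.4%. Whether any of these regulators had a part in the ratios of the kinase genes or of the pathway was not tested.

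Among cofactor and helper genes of the oxoacid dehydrogenases, Ogdhl, a relative of Ogdh, was 1.89-fold above WT in rescue and 1.68-fold in KO, with 128 counts in rescue, 114 in KO and 69 in WT. Mrps36, which recruits the E3 subunit to the 2-oxoglutarate dehydrogenase complex, had 236 in rescue, 192 in KO and 310 in WT, on a row of 710 bases. The genes of lipoate synthesis and attachment Lias, Lipt1 and Mecr stayed within 1.25-fold of WT in both. Lipt2 had only 21 counts in rescue, 30 in KO and 33 in WT. Its 1.53-fold lower level in rescue than in WT lay within counting error (log2 ratio -0.61, interval -1.49 to 0.21).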
